A study of Mus musculus with 24 samples.

Results

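The 10 germline genes described here are Stra8, Meioc, Rec8, Dazl, Ddx4, Sycp1, Sycp3, Mael, Tex101, and Dppa3, taken by symbol from a table of 26264 genes. Each is known for a role in primordial germ cells, meiosis, or germ cell differentiation, and most are known to be kept silent in somatic cells. All 10 had a row in the table, and all 10 passed the filter on low counts in every fit.

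Bulk RNA was sequenced from 2 mouse embryonic stem cell (ESC) lines, BAP1-AID and UTX-AID. They carry an HA-AID tag on BAP1, the nuclear deubiquitinase that acts on H2AK119ub1, or on UTX, the H3K27 demethylase encoded by Kdm6a. Both lines were grown in serum with LIF and overexpress TIR1, the adaptor through which the auxin indole-3-acetic acid (IAA) sends the tagged protein to the proteasome, and this holds for the −IAA controls too. Cells without IAA (−IAA) or pretreated with IAA (+IAA) received retinoic acid (RA) without LIF for 0, 3, or 6 h. The 12 groups hold 2 replicates each, 24 libraries in all. Each line is a clone, so the tagged protein cannot be told apart from the clone or from anything else that differed between the lines, and no library of untagged cells was analysed here. Nothing states that the replicates are separate cultures, so p-values measure the spread between libraries.

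Library totals ran from 42018795 to 54034789 counts, and 3 counts, taken as the detection floor, corresponded to 0.0545–0.0693 CPM, the count scaled to library size with TMM factors. Bap1 mRNA had 94.1–106 CPM in the BAP1-AID and 67.9–86.2 CPM in the UTX-AID libraries, and Kdm6a mRNA 60.4–103 and 93.3–124 CPM. An AID tag removes protein, so the mRNA of the targeted gene does not check the IAA arms. RA acted in both clones, since Cyp26a1, the RA-degrading enzyme, was higher after 6 h by 8.95 ± 0.0686 (log2 fold change ± SE) in BAP1-AID against 7.93 ± 0.211 in UTX-AID. Rarb, the RA receptor gene that RA itself induces, was higher by 7.13 ± 0.220 and 4.19 ± 0.358. In BAP1-AID, Rarb was also higher with IAA in edgeR's quasi-likelihood test. The value was 1.52 ± 0.218 averaged over the RA times (adjusted p = 0.000199) and 3.68 ± 0.607 before RA (adjusted p = 0.00111). Its RA value in that clone therefore averages arms with different starting levels. Pou5f1, a defining ESC gene, stood at 794–945 CPM in UTX-AID and 1150–1546 CPM in BAP1-AID. Other ESC markers went either way between the clones (log2, BAP1-AID against UTX-AID). Lin28a was higher by 1.48 ± 0.03, and Zfp42 (−1.73 ± 0.03) and Nanog (−1.41 ± 0.04) were lower. The 8 markers of spermatids and oocytes summed to 2.51–6.46 CPM (BAP1-AID) and 3.48–6.42 CPM (UTX-AID), nearly all of it Zp3, and 2 of 8 were at 0 in every library of each clone. The 7 fibroblast markers summed to 6.91–13.7 CPM and 2.48–7.04 CPM, most of it Dcn and Thy1, with 1 of 7 at 0 throughout BAP1-AID and 2 of 7 throughout UTX-AID.

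Germline genes are silenced early in the embryo by the noncanonical Polycomb complex PRC1.6, which reads E-box and E2F letters through MAX, MGA, and E2F6, and by promoter DNA methylation and H3K9 methylation. RA is the signal that starts meiosis in the germline, where it switches on Stra8, the gatekeeper of meiotic entry, and the meiotic cohesin gene Rec8. In ESCs, Stra8 is a classical RA-induced gene, named for this property, although the cells do not enter meiosis.

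Promoter sequences were examined because the members respond differently to RA and differ in level between the clones. RefSeq windows, which reach from 250 bases before to 50 after the start annotated in RefSeq, were matched for 9 of 10 members, the exception being Dppa3. The windows of Stra8, Meioc, and Tex101 lie inside the gene bounds given below, which come from GENCODE. What is said of a window holds for the RefSeq start, and other starts were not examined. The table is of GRCm38.p6, and each window was placed on mm39 by a unique exact match. The letters searched, on both strands, were the nuclear receptor half-site AGGTCA, the E-box CACGTG, and the E2F-type site GCGGGA, none of which overlap each other in these windows. Meioc, which was among the genes called between the clones, is not printed, and its window holds 1 E2F site and no E-box. Printed are the RA-responsive Stra8 and Rec8, and Ddx4, Sycp1, and Sycp3, which also differed between the clones. Mael is printed because it holds E-box and E2F letters like those 3. Shown in capitals are all matches, 5′ to 3′ on the strand of the gene.
Stra8, chr6:34897633-34897932, plus strand: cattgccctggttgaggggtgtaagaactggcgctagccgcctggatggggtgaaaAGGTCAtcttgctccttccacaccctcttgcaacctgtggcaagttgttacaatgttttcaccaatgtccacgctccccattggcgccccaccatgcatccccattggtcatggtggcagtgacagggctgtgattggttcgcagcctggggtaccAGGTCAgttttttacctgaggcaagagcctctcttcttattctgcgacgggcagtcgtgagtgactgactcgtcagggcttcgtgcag
Rec8, chr14:55855373-55855672, plus strand: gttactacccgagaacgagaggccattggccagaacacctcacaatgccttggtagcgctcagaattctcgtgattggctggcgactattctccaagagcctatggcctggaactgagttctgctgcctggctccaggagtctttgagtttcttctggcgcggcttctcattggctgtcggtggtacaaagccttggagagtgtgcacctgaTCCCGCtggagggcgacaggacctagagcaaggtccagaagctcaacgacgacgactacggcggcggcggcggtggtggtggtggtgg
Ddx4, chr13:112788795-112789094, minus strand: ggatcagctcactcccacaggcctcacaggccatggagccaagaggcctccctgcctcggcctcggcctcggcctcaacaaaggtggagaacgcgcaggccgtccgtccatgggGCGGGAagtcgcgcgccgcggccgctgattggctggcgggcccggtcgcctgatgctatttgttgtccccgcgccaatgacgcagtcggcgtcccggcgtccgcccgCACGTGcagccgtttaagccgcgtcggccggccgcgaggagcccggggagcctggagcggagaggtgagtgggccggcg
Sycp1, chr3:102843367-102843666, minus strand: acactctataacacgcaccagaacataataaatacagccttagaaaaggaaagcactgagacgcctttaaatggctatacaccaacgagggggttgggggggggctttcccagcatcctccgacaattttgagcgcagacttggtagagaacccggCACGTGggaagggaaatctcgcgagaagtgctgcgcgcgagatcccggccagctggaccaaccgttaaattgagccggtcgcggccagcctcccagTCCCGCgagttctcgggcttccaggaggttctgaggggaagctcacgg
Sycp3, chr10:88295199-88295498, plus strand: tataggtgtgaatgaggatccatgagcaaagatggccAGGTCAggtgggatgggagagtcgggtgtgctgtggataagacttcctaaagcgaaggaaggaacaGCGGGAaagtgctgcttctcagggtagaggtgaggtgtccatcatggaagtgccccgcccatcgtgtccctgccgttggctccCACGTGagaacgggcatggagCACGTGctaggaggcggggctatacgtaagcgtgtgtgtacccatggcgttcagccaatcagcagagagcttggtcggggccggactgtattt
Mael, chr1:166066264-166066563, minus strand: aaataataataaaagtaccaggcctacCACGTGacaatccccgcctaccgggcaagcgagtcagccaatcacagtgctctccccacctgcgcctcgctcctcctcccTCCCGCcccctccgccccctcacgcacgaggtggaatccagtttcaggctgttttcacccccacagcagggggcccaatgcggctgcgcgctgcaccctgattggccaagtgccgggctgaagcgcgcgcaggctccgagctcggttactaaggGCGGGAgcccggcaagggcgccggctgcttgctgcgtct

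The Stra8 window held 2 half-sites, at −194 to −189 and at −38 to −33 from the start, and no E-box or E2F letters. A window with at least 2 half-sites was found for 1.81% of all 32851 windows. Sycp3 was the only other member with a half-site, which 16.3% of all windows have. E-box letters were found in Ddx4, Sycp1, Sycp3, and Mael, against 7.15% of all windows, and E2F letters in these genes and in Meioc and Rec8, against 20% of all windows. Of the 9 member windows, 4 held both kinds of letters, which compares with 1.99% of all windows. The member windows held 10 to 38 CG dinucleotides, the fewest in Stra8 and the most in Ddx4, where the median over all windows was 7. Both kinds of letters contain CG, and the windows compared were not matched for it. Germline genes are also known targets of PRC1.6, which reads these letters, so the shares are only a description. The Dazl and Tex101 windows held none of these letters. A match is a description of the sequence and was not tested as a binding site.

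Levels of different genes were compared per kilobase of the longest annotated transcript. In UTX-AID, leaving Stra8 aside, the median level over 12 libraries was highest for Sycp3, with 7.49 CPM per kb, followed by Sycp1 with 5.08, Dppa3 with 4.98, Ddx4 with 4.59, Dazl with 3.82, Mael with 3.65, Meioc with 2.19, Rec8 with 1.65, and Tex101 with 0.316 CPM per kb. Every neighbouring pair in this order overlapped in range except Rec8 and Tex101. In BAP1-AID the order ran Dppa3 with 7.10 CPM per kb, Mael with 3.99, Sycp3 with 2.33, Dazl with 2.2, Rec8 with 1.08, Sycp1 with 0.749, Ddx4 with 0.483, Meioc with 0.482, and Tex101 with 0.148. Here the ranges of Dppa3 and Mael were apart and every other neighbouring pair overlapped. Stra8 in BAP1-AID went from 0.107 to 73.3 CPM per kb, above the highest library of every other member. In bulk RNA, fewer cells expressing a gene and less RNA per cell cannot be told apart.

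The first comparison asked which of these genes change during the first hours of RA. Stra8 rose strongly in both clones, Rec8 rose at 6 h in BAP1-AID, and the other 8 genes were not called at either time. Calls here need both an adjusted p under 0.05 and more than a 2-fold change in edgeR's quasi-likelihood test, with the IAA arms averaged. At 3 h, 1 of 10 members was called in BAP1-AID, where 2.93% of all 15695 genes tested were called, and 1 of 10 in UTX-AID, against 1.76% of 16268. At 6 h it was 2 of 10 in BAP1-AID, against 5.12%, and 1 of 10 in UTX-AID, against 2.61%. At 6 h the members had a median log2 fold change of 0.33 in BAP1-AID, where all genes had 0.0092, and of 0.013 in UTX-AID, where all genes had −0.0012.

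Stra8 (chr6:34897098-34916279, plus strand, 9 exons), whose product is required in germ cells for entry into meiosis, had few reads in BAP1-AID before RA. Its counts in the −IAA libraries of BAP1-AID were 12 and 29 at 0 h, 1348 and 1620 at 3 h, and 5259 and 5666 at 6 h. The +IAA libraries gave 10 and 19, then 1639 and 1727, then 6710 and 6448. Without IAA this is 0.401 ± 0.245 CPM (SD, n = 2) before RA and 109 ± 3.33 CPM after 6 h, and with IAA 0.290 ± 0.138 and 132 ± 0.314 CPM. No library at 3 or 6 h overlapped with one at 0 h. The level was 95.1-fold higher at 3 h (log2 fold change 6.57 ± 0.15 SE, adjusted p = 8.39e-11) and 353-fold higher at 6 h (8.46 ± 0.15, adjusted p = 3.06e-12).

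In UTX-AID, Stra8 had a measurable level before RA. Counts of the −IAA libraries were 175 and 154 at 0 h, 1346 and 1589 at 3 h, and 2838 and 3249 at 6 h. In the +IAA libraries they were 187 and 127, then 1500 and 1337, then 2892 and 2628. Levels rose from 3.37 ± 0.339 CPM (SD, n = 2) to 62.9 ± 0.407 CPM without IAA and from 3.03 ± 0.702 to 54.7 ± 0.510 CPM with it, again without overlap between times. The fold was 9.18 at 3 h (log2 fold change 3.20 ± 0.09, adjusted p = 2.99e-12) and 18.4 at 6 h (4.2 ± 0.09, adjusted p = 8.94e-14).

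**Figure D1:**
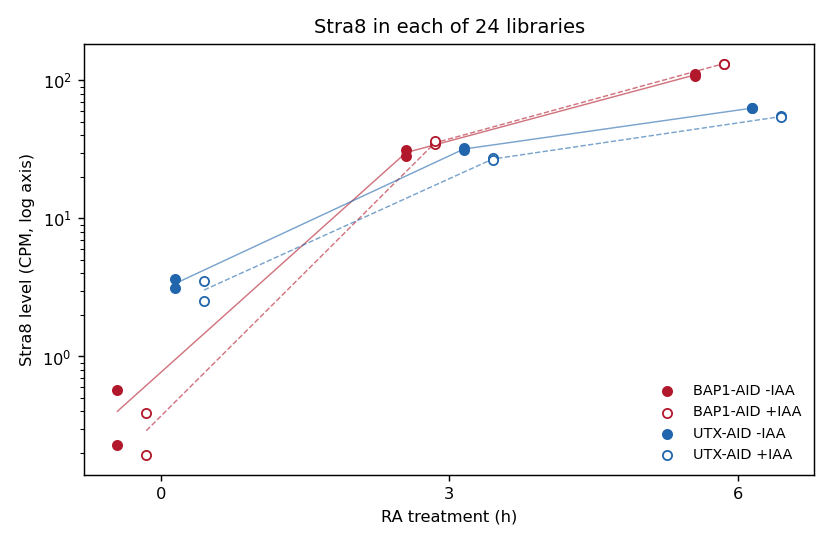
Level of Stra8 in each of the 24 libraries (y axis, CPM on a log axis) at 0, 3, and 6 h of RA (x axis, points shifted sideways by group), with filled points for −IAA, open points for +IAA, and lines through the means of 2 replicates. BAP1-AID starts at 0.193–0.574 CPM and ends at 107–132 CPM, and UTX-AID starts at 2.53–3.61 CPM and ends at 54.3–63.2 CPM.

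Stra8 was still rising after 3 h. From 3 to 6 h it rose 3.71-fold in BAP1-AID (log2 fold change 1.89 ± 0.09, adjusted p = 1.18e-06), where 0.599% of genes were called. In UTX-AID it rose 2.01-fold (adjusted p = 6.04e-06), where 0.117% were called, and the 95% interval of the log2 fold change, 0.85 to 1.16, spans the threshold. No other member was called between these times.

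The RA response of Stra8 differed between the clones. The difference of the log2 fold changes, BAP1-AID minus UTX-AID, was 3.37 ± 0.20 at 3 h (adjusted p = 5.83e-10) and 4.26 ± 0.19 at 6 h (adjusted p = 3.45e-12), and Stra8 was the only member called at either time, where 0.262% and 0.648% of 16816 genes were called. Among all genes called, the log2 fold change was the higher one in BAP1-AID for 42 of 44 (3 h) and 88 of 109 (6 h). For Stra8, the clones were far apart before RA, by −3.08 ± 0.24 (log2, BAP1-AID against UTX-AID) in the −IAA and −3.39 ± 0.26 in the +IAA libraries. At 3 h the difference was −0.11 ± 0.12 without IAA (adjusted p = 0.478) and 0.38 ± 0.12 with it (adjusted p = 0.00987). At 6 h it was 0.78 ± 0.11 (adjusted p = 4.27e-06) and 1.27 ± 0.12 (adjusted p = 4.2e-09), so the clone with the lower level before RA had the higher level after 6 h. Rarb differed in the same contrast by 2.94 ± 0.58 at 6 h (adjusted p = 0.00473) and Cyp26a1 by 1.02 ± 0.353 (adjusted p = 0.15).

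Rec8 (chr14:55855455-55862852, plus strand, 20 exons) encodes the meiotic cohesin subunit that holds sister chromatids together. In BAP1-AID without IAA it stood at 1.67 and 2.93 CPM at 0 h, 4.23 and 3.29 at 3 h, and 4.64 and 5.58 at 6 h. With IAA the levels were 0.810 and 1.20 CPM, then 1.34 and 1.75, then 1.85 and 3.19. Within each arm both libraries at 6 h were above both at 0 h, while over the arms together the times overlapped. Rec8 was 2.36-fold higher at 6 h (log2 fold change 1.24 ± 0.24, adjusted p = 0.00245), with 0.66 ± 0.25 at 3 h (adjusted p = 0.126). Without 1 library, the +IAA replicate 2 at 6 h, the value at 6 h was 0.996, just under the threshold of 1.

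In UTX-AID, Rec8 levels were 2.96–3.88 CPM at 0 h, 3.03–3.88 at 3 h, and 4.35–5.57 at 6 h over 4 libraries each, and the 0 and 6 h libraries did not overlap. The log2 fold change at 6 h was 0.56 ± 0.14 (adjusted p = 0.0143), which is below the fold threshold. The difference between the clones at 6 h was 0.68 ± 0.28 (adjusted p = 0.259), so the call in BAP1-AID and its absence in UTX-AID were not shown to differ.

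For 6 of the other 8 genes, the 95% intervals of the log2 fold changes at both times and in both clones lay within ±1, that is, under a 2-fold change. Dazl (chr17:50586366-50600664, minus strand, 11 exons), an RNA-binding protein that licenses germ cells for gametogenesis, had intervals between −0.40 and 0.61. Its largest value was 0.39 ± 0.10 at 6 h in BAP1-AID (adjusted p = 0.0109), which became 0.15 ± 0.10 (adjusted p = 0.328) after correction of each library for transcript GC content and length. Without IAA it was 0.69 ± 0.14 (adjusted p = 0.00519) and with IAA 0.09 ± 0.13. Ddx4 (chr13:112734867-112789009, minus strand, 22 exons), the germ cell RNA helicase Vasa, had intervals between −0.75 and 0.47. Mael (chr1:166028770-166066331, minus strand, 12 exons), a piRNA pathway protein that keeps transposons silent, lay between −0.60 and 0.39. Dppa3 (chr6:122586548-122607237, plus strand, 4 exons), a maternal factor that protects DNA methylation in the zygote and is also made in ESCs, lay between −0.43 and 0.25.

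Sycp1 (chr3:102725709-102843455, minus strand, 33 exons), which forms the transverse filaments of the synaptonemal complex, had intervals between −0.30 and 0.76. Sycp3 (chr10:88295431-88309099, plus strand, 8 exons), a protein of the lateral elements of that complex, came closest to the limit, with intervals between −0.21 and 0.97. Its BAP1-AID levels were 1.84–2.60 CPM before RA and, without overlap, 2.84–3.78 CPM at 6 h (log2 fold change 0.62 ± 0.16, adjusted p = 0.0132), and 0.35 ± 0.18 (adjusted p = 0.203) with the GC and length correction. Sycp3 shares 661 exon bases with Chpt1 on the opposite strand, whose counts were 119–501, and Dppa3 shares 184 with Gdf3, whose counts were 5651–8748. Whether the counting used strand is not given in the sources used here, so reads of these pairs may not be told apart.

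Meioc and Tex101 could not be placed in either class. Meioc (chr11:102554542-102573063, plus strand, 8 exons), which acts with YTHDC2 to carry germ cells through meiotic prophase, had log2 fold changes in BAP1-AID of 0.50 ± 0.23 (3 h) and 0.39 ± 0.23 (6 h), neither with an adjusted p under 0.05, and an interval at 3 h whose upper end, 1.0013, is just past the limit. Tex101 (chr7:24367432-24376100, minus strand, 6 exons), a germ cell surface protein of the testis, had 9 to 26 counts per library in UTX-AID and 0 to 22 in BAP1-AID, where 3 libraries were at 0. Its intervals reached from −2.50 to 3.44, so a change of several-fold was not detectable at this depth.

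**Figure D2:**
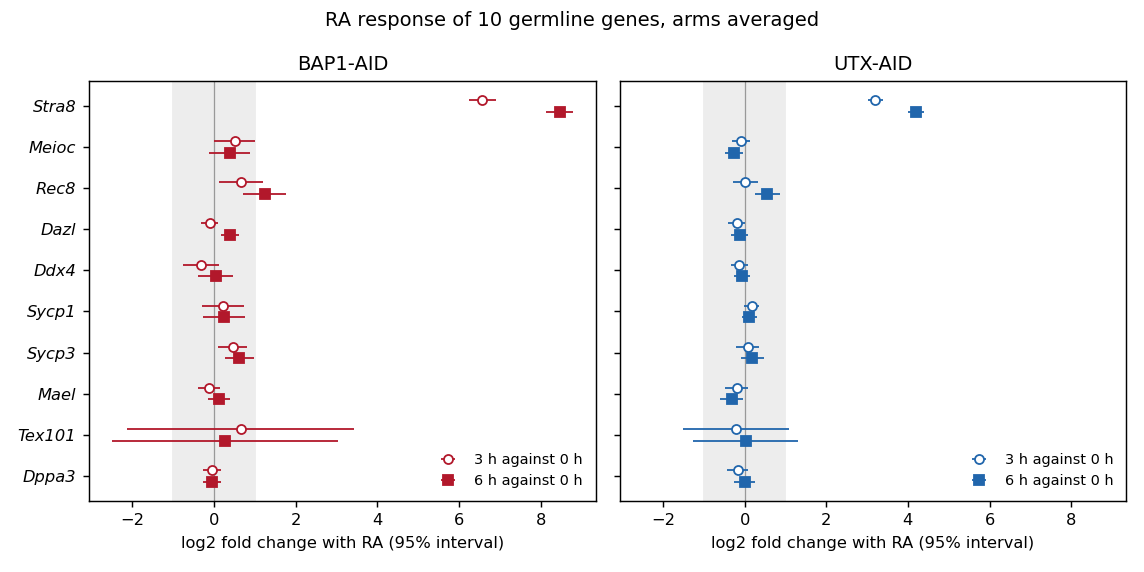
Log2 fold change of each of the 10 genes with RA (x axis), with the 95% interval as bars, at 3 h (open circles) and 6 h (filled squares) against 0 h, in BAP1-AID (left) and UTX-AID (right), with the 2 arms averaged. Stra8 stands at 6.57 and 8.46 (BAP1-AID) and at 3.20 and 4.2 (UTX-AID), Rec8 reaches 1.24 in BAP1-AID at 6 h, and the shaded band marks changes under 2-fold.

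Other germline genes gave few calls with RA. A list of 25 further germline genes, chosen as known targets of silencing by PRC1.6 or DNA methylation, was not silent as a whole here. Its sum was 390–480 CPM per library. Tex19.1, which ESCs make, gave 37.7–130 CPM of it, and most of the sum came from other genes of the list. Of these 25, none was called at 3 h in either clone, while 4 in BAP1-AID and 3 in UTX-AID had an unadjusted p under 0.05. Over all genes, 3342 of 15695 (BAP1-AID) and 3154 of 16268 (UTX-AID) had such a p at 3 h, and 5420 and 3788 at 6 h. At 6 h, 1 of 25 was called in BAP1-AID, Smc1b, the meiotic cohesin subunit (log2 fold change 1.18 ± 0.37, adjusted p = 0.0358), a call lost with the GC and length correction (1.00 ± 0.37, adjusted p = 0.0672). None was called in UTX-AID, where 5 had an unadjusted p under 0.05. Of 22 meiotic prophase genes, 17 (BAP1-AID) and 20 (UTX-AID) passed the filter and none was called, with 0 or 1 of them under an unadjusted p of 0.05 in each contrast. The median log2 fold change of these lists lay between −0.03 and 0.15.

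Genes of primordial germ cells that are also used by other cells gave more calls. Of 10 that passed the filter, BAP1-AID had 3 higher at either time, with list medians of 0.39 and 0.41, and UTX-AID had 3 and then 2, with medians of 0.17 and 0.21. Tfap2c, a transcription factor of germ cell specification, rose by 2.78 ± 0.12 (log2) at 6 h in BAP1-AID and by 2.44 ± 0.25 at 6 h in UTX-AID. Kit, the receptor for stem cell factor, rose by 2.77 ± 0.09 and 1.46 ± 0.06. Prdm14, a regulator of germ cell specification and naive pluripotency, was 1.01 ± 0.10 higher in BAP1-AID at 6 h, at the fold threshold and just under it with the correction (0.99 ± 0.10), and 1.22 ± 0.18 higher in UTX-AID at 3 h. None of the 14 PRC1.6 genes was called with RA in either clone, with 2 to 7 of them under an unadjusted p of 0.05. Of 12 DNA methylation and H3K9 methylation genes, Tet2, which oxidises methylated cytosine, was the only one called. It was higher in BAP1-AID by 1.26 ± 0.05 (3 h) and 1.36 ± 0.05 (6 h). None was called in UTX-AID, where 6 of 12 were under an unadjusted p of 0.05 at each time. In UTX-AID, 3154 (3 h) and 3788 (6 h) of all 16268 genes were under that p, and in BAP1-AID 3342 and 5420 of 15695.

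Among the genes most like Stra8 over the 24 libraries, by Pearson's r of log2(CPM + 0.5), were Aqp3 with 0.989, Ksr1 with 0.971, Etnk2 with 0.969, and Nudt4 with 0.969. The genes most like Dazl were Naa16 with 0.97, Kif4 with 0.966, Impact with 0.965, Sgo1 with 0.963, and Arl5b with 0.959. These points share clones, arms, and base composition, and the values are a description.

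The second comparison asked whether IAA, given to deplete BAP1 or UTX, changes the level of these genes. With IAA in BAP1-AID, Rec8 was lower and called, and Dazl was higher in every library but by less than the fold threshold. Averaged over the RA times, 1 of 10 members was called, against 1.51% of all genes. In UTX-AID, 0 of 10 were called, against 0.135% of all genes. An unadjusted p under 0.05 was found for 2 members, Stra8 (−0.20 ± 0.07) and Sycp1 (−0.15 ± 0.07), and for 2543 of all 16268 genes. DESeq2 called no member there. The genes were followed at each time in BAP1-AID, where the share of all genes called was 1.15% before RA, 0.892% after 3 h, and 1.61% after 6 h.

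Rec8 in BAP1-AID had levels of 1.67, 3.76, and 5.58 CPM (lowest, median, highest of 6) without IAA and 0.810, 1.55, and 3.19 CPM with it. At every time both +IAA libraries were below both −IAA libraries, while the arms overlapped over all times. The log2 fold change was −1.17 ± 0.20 (adjusted p = 0.000647), with −1.20 ± 0.36 at 0 h, −1.28 ± 0.34 at 3 h, and −1.04 ± 0.33 at 6 h, of which the first 2 were called. Corrected for GC content and length, the value was −0.95 ± 0.20 (adjusted p = 0.00348), which is under the fold threshold. Its UTX-AID value was 0.07 ± 0.12, and the difference of the IAA effects between the clones, a test chosen after the data were seen, was −1.22 ± 0.23 (adjusted p = 0.000327), where 2.22% of genes were called, and −1.01 ± 0.23 (adjusted p = 0.00349) with the correction.

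Dazl in BAP1-AID had levels of 3.80 and 3.96 CPM at 0 h, 4.38 and 4.11 at 3 h, and 5.90 and 6.58 at 6 h without IAA. With IAA they were 9.77 and 8.10, then 7.39 and 6.77, then 9.71 and 9.38 CPM, so that the arms did not overlap. The log2 fold change averaged over times was 0.84 ± 0.08 (adjusted p = 8.24e-06), below the fold threshold, and 0.47 ± 0.08 (adjusted p = 0.00118) with the correction. The level was 2.29-fold higher at 0 h, which was called (adjusted p = 0.000116), 1.67-fold at 3 h, and 1.51-fold at 6 h. In UTX-AID the log2 fold change was 0.05 ± 0.08. The difference between the clones was 0.81 ± 0.11 (adjusted p = 1.07e-05), and 0.38 ± 0.12 (adjusted p = 0.0318) with the correction.

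Across 15168 genes of BAP1-AID, the log2 fold change with IAA and the GC content of the longest transcript were correlated at a Spearman rho of −0.458, against 0.012 in UTX-AID, and genes are not independent replicates. The transcript of Rec8 is 56.6% GC and that of Dazl 37.0%, on the 2 sides of this trend. Meioc (38.9% GC) was higher with IAA by 0.67 ± 0.19 (adjusted p = 0.0145) and by 0.32 ± 0.18 (adjusted p = 0.216) with the correction. Sycp1 (37.5% GC) was called at 6 h (1.16 ± 0.34, adjusted p = 0.0417), while averaged over times it was 0.50 ± 0.19 (adjusted p = 0.0623) and 0.14 ± 0.18 with the correction. In the difference between the clones, Meioc had 0.75 ± 0.19 (adjusted p = 0.00467) and Sycp1 0.67 ± 0.19 (adjusted p = 0.00961), both under the fold threshold. In BAP1-AID, Stra8 showed 0.0042 ± 0.21, Ddx4 0.23 ± 0.16, Sycp3 0.21 ± 0.13, Mael 0.0025 ± 0.10, Dppa3 −0.21 ± 0.08, and Tex101 −0.69 ± 1.03, each with an adjusted p over 0.05.

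**Figure D3:**
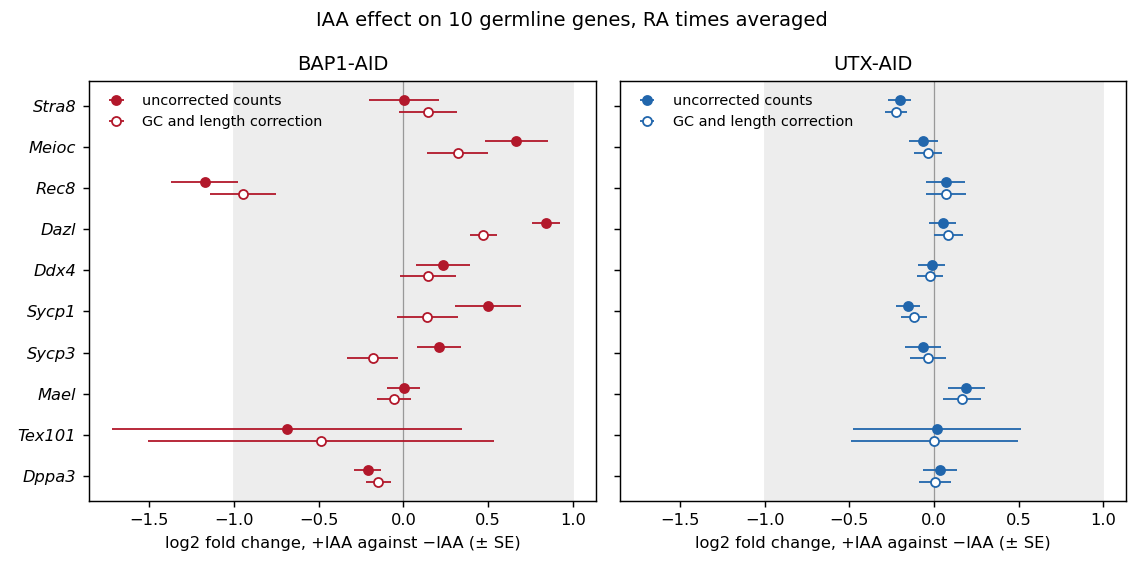
Log2 fold change of each gene with IAA (x axis, ± SE), RA times averaged, in BAP1-AID (left) and UTX-AID (right), as deposited (filled) and corrected for GC content and length (open). In BAP1-AID, Rec8 stands at −1.17 and −0.95 and Dazl at 0.84 and 0.47, and the shaded band marks changes under 2-fold.

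Averaged over the RA times, 1 of the 25 further germline genes was called higher with IAA in BAP1-AID, Tex15, a protein of the piRNA pathway and of meiotic recombination (1.05 ± 0.29, adjusted p = 0.0134), and none with the correction. None was called in UTX-AID, with an unadjusted p under 0.05 for 3. None of the meiotic prophase, primordial germ cell, PRC1.6, or DNA methylation genes was called in this average in either clone, with unadjusted p under 0.05 for 3, 7, 13, and 5 of them (BAP1-AID) and for 0, 3, 4, and 1 (UTX-AID). Over all genes, 6978 of 15695 (BAP1-AID) and 2543 of 16268 (UTX-AID) had an unadjusted p under 0.05. At single times, 2 genes of these lists were called in BAP1-AID, Fkbp6, a gene of meiosis and the piRNA pathway, lower at 3 h (−1.20 ± 0.22, adjusted p = 0.00621), and Mga, the E-box reader of PRC1.6, higher at 6 h (1.10 ± 0.09, adjusted p = 1.08e-05), and none in UTX-AID. With the correction, 1 of 17 meiotic prophase genes was lower on average in BAP1-AID, Terb2, a gene of the meiotic telomere complex (−1.16 ± 0.30, adjusted p = 0.0134). This compares with 1.04% of all genes called with the correction.

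The third comparison asked whether the RA response itself depends on BAP1 or UTX. No member was called as altered by edgeR or by DESeq2. The share of all genes called in BAP1-AID was 0.00% (3 h) and 0.0255% (6 h), and in UTX-AID it was 0.0123% and 0.00%. An unadjusted p under 0.05 was found in BAP1-AID for 2 members after 3 h (Dazl and Dppa3) and 1 after 6 h (Dazl), and in UTX-AID for 1 after 3 h (Ddx4) and 0 after 6 h. Over all genes it was found for 1176 (3 h) and 1615 (6 h) of 15695 in BAP1-AID, and for 671 and 558 of 16268 in UTX-AID. For Stra8, the response with IAA minus that without it was in BAP1-AID 0.71 ± 0.43 (3 h, adjusted p = 0.836) and 0.73 ± 0.43 (6 h, adjusted p = 0.614). The intervals, from −0.23 to 1.64 and from −0.20 to 1.67, are wide and hold values past the fold threshold, with 10 to 29 counts per library before RA. In UTX-AID the differences for Stra8 were −0.087 ± 0.18 and −0.043 ± 0.18, with intervals from −0.47 to 0.29 and from −0.42 to 0.33. For Rec8 the values at 6 h were 0.17 ± 0.48 (BAP1-AID) and 0.38 ± 0.28 (UTX-AID).

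**Figure D4:**
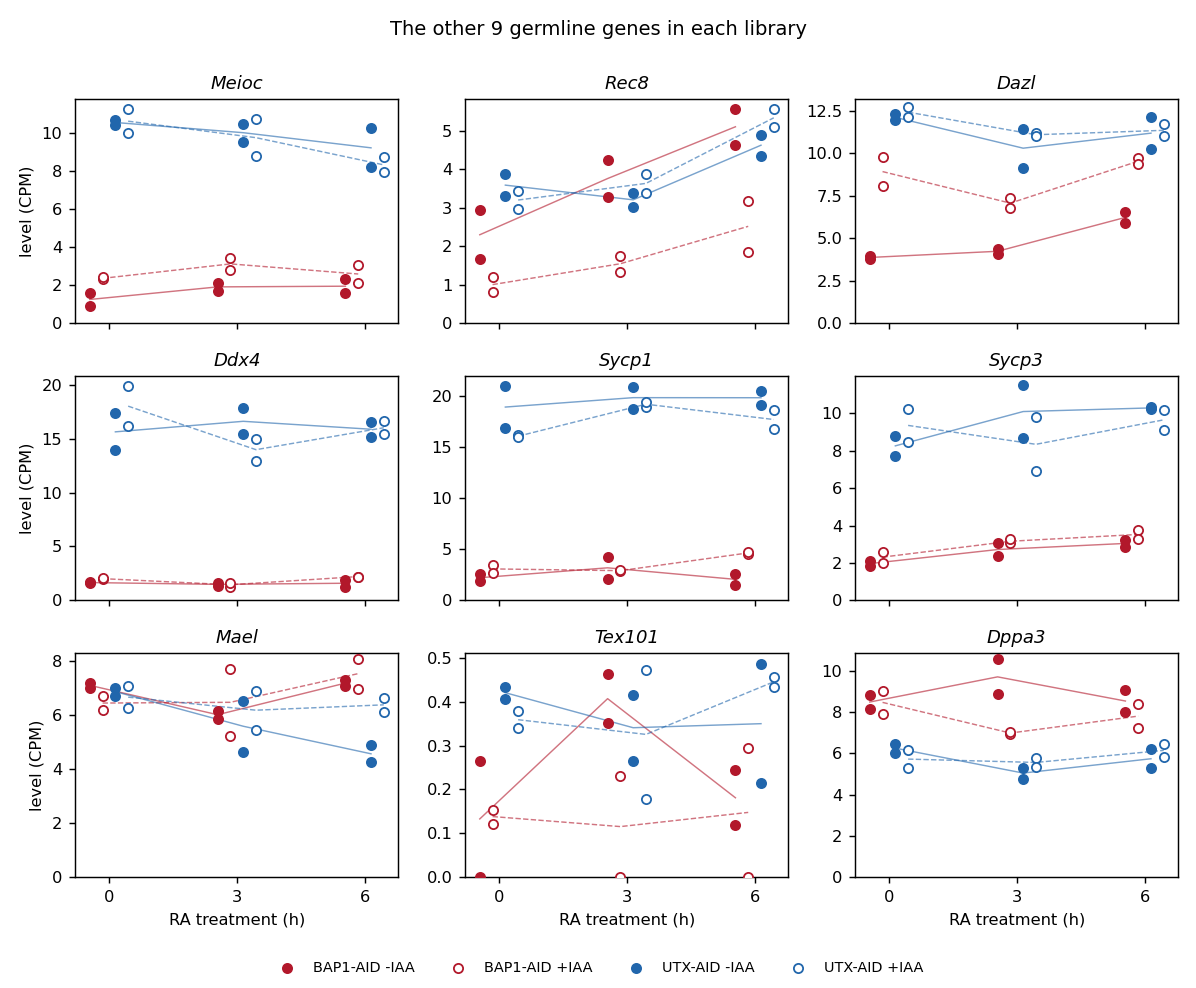
Level of the other 9 genes in each of the 24 libraries (y axis, CPM, starting at 0) by hours of RA (x axis, points shifted sideways by group), with filled points for −IAA, open points for +IAA, and lines through the means of 2 replicates. Meioc, Ddx4, Sycp1, and Sycp3 show the UTX-AID libraries above all BAP1-AID libraries, Dazl shows the 2 arms of BAP1-AID apart, and Dppa3 lies higher in BAP1-AID, at 6.93–10.6 CPM against 4.78–6.47 CPM.

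The last comparison set the levels of the clones side by side over the 6 conditions. Ddx4, Sycp1, Meioc, and Sycp3 were lower in BAP1-AID, each without overlap between the 12 libraries of either clone. These 4 of 10 members compare with 26.5% of all 16816 genes called, so a call between the clones was common. An adjusted p under 0.05 held for 74.9% of all genes, and the share of genes without overlap was not computed. With the GC and length correction, which left Sycp3 uncalled, 22.6% of all genes were called. The members had a median log2 fold change of −0.999, and all genes −0.067.

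Ddx4 had levels of 1.26, 1.67, and 2.21 CPM (lowest, median, highest of 12) in BAP1-AID and 13.0, 15.8, and 19.9 CPM in UTX-AID. The log2 fold change was −3.24 ± 0.08 (adjusted p = 1.7e-20), between −3.51 and −2.86 in the 6 conditions, and −2.95 ± 0.08 with the GC and length correction. Sycp1 had 1.52, 2.77, and 4.74 CPM against 16.0, 18.8, and 20.9 CPM, which is −2.69 ± 0.10 (adjusted p = 2.4e-17) and −1.52 ± 0.09 with the correction. Meioc had 0.892, 2.23, and 3.46 CPM against 7.95, 10.1, and 11.3 CPM, which is −2.21 ± 0.10 (adjusted p = 1.03e-15) and −1.21 ± 0.09 with the correction.

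Sycp3 had 1.84, 2.94, and 3.78 CPM in BAP1-AID against 6.90, 9.47, and 11.5 CPM in UTX-AID. The log2 fold change was −1.78 ± 0.08 (adjusted p = 5.1e-15), and −0.31 ± 0.09 (adjusted p = 0.00402) with the correction, which ended the call. For Dazl the value was −0.87 ± 0.06 (adjusted p = 2.21e-12), and it turned to 0.38 ± 0.06 (adjusted p = 7.17e-06) with the correction, so its direction depends on it. As deposited it lay between −1.65 and −0.86 in the −IAA conditions and between −0.66 and −0.25 in the +IAA conditions. Across 16208 genes, the log2 fold change between the clones correlated with GC content at a Spearman rho of 0.282, and the transcripts of Sycp3, Dazl, Sycp1, and Meioc are 36.1–38.9% GC and that of Ddx4 45.0%.

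Rec8 had −0.72 ± 0.12 (adjusted p = 6.13e-06), and −0.97 ± 0.12 with the correction. Stra8 had −0.69 ± 0.07 (adjusted p = 1.32e-08), an average over times of opposite sign. Dppa3 had 0.52 ± 0.06 (adjusted p = 9.01e-08), without overlap of the libraries, and was under the fold threshold. Mael was at 5.22–8.08 CPM in BAP1-AID and 4.24–7.05 CPM in UTX-AID, with 0.17 ± 0.08 (adjusted p = 0.0528). Tex101 gave −1.13 ± 0.58 (adjusted p = 0.0856), and was called by DESeq2 (−1.17, adjusted p = 0.0372).

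**Figure D5:**
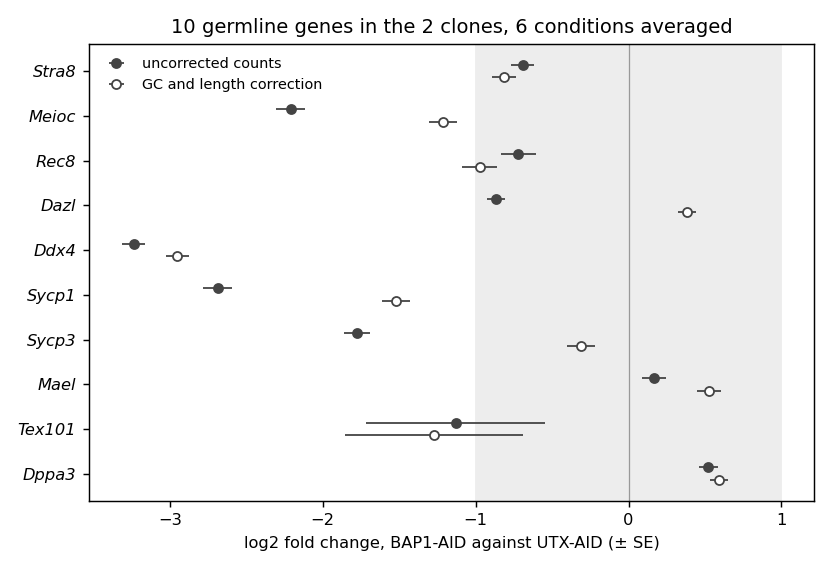
Log2 fold change of each gene in BAP1-AID against UTX-AID (x axis, ± SE), 6 conditions averaged, as deposited (filled) and corrected for GC content and length (open). Ddx4 stands at −3.24 and −2.95, Sycp3 moves from −1.78 to −0.31, and Dazl moves from −0.87 to 0.38, while the shaded band marks differences under 2-fold.

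The lists of further germline genes and of meiotic prophase genes held more genes called lower than higher in BAP1-AID. So did all genes, of which 2919 were lower and 1544 higher. Of the 25 further germline genes, 14 were lower and 3 higher in BAP1-AID, with a median of −1.10, and 10 lower and 3 higher with the correction. With the correction, 22.6% of all 16816 genes were called, 2487 lower and 1321 higher. Smc1b was lower by −3.74 ± 0.11, at 0.139–1.57 CPM against 7.81–13.3 CPM, Tex11, an X-linked meiotic crossover gene, by −2.90 ± 0.16, and Tdrkh, a piRNA pathway protein, by −2.54 ± 0.14. Tex19.1, which is made in ESCs and placenta as well as germ cells, was higher by 1.47 ± 0.04, Tex19.2 by 1.37 ± 0.23, and Tuba3b, a testis tubulin, by 1.58 ± 0.14. Of 20 meiotic prophase genes tested, 14 were lower and none higher, with a median of −1.66, and 9 were lower with the correction. Ythdc2, the partner of MEIOC, was lower by −1.83 ± 0.04, Dmc1, a meiotic recombinase, by −1.65 ± 0.08, and Iho1, a factor for meiotic DNA breaks, by −1.66 ± 0.13. With the correction these were −1.25 ± 0.04, −0.97 ± 0.07, and −1.67 ± 0.13.

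The counts that follow stand beside 26.5% of all 16816 genes called between the clones, and 22.6% with the correction. Of 10 primordial germ cell genes, Kit was higher in BAP1-AID (1.10 ± 0.04) and none lower, and Kit was under the fold threshold with the correction (0.93 ± 0.03). Of 14 PRC1.6 genes, 3 were lower, namely Mga (−1.70 ± 0.03), which reads the E-box, the chromodomain gene Cbx3 (−1.51 ± 0.04), and the E3 ligase gene Rnf2 (−1.09 ± 0.03), and 1 of them, Mga, with the correction (−1.08 ± 0.03). Of 12 DNA methylation and H3K9 methylation genes, Dnmt3b, a de novo methyltransferase, was higher (1.45 ± 0.04, 816–1432 against 271–549 CPM) and Tet2 (−1.55 ± 0.03) and Tet1 (−1.24 ± 0.03) were lower, with values of 1.10, −1.69, and −0.80 under the correction.

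Markers of other states were compared between the clones too, where 26.5% of all 16816 genes were called, and 22.6% with the correction. The 6 markers of the 2-cell-like state, a rare state of ESCs, summed to 0.484–1.70 CPM (BAP1-AID) and 17.3–35.2 CPM (UTX-AID), and 6 of 6 were called lower in BAP1-AID, Zscan4c at 0.204–0.752 against 6.10–11.5 CPM. None of the 6 was at 0 throughout a clone. The 6 primitive endoderm markers summed to 69.6–84.9 CPM (BAP1-AID) and 48.3–63.7 CPM (UTX-AID), none of them at 0 throughout a clone. Col4a1 (log2 fold change 1.29 ± 0.05) and, with a wide SE, Sox17 (2.93 ± 0.97) were called higher in BAP1-AID. With the correction, 2 primitive endoderm markers were higher and 1 was lower. The 8 ESC markers summed to 2893–3456 CPM and 2371–2783 CPM, with Lin28a higher and Zfp42 and Nanog lower. Of 5 fibroblast markers tested, Dcn was higher (2.63 ± 0.13). The sum of the spermatid and oocyte markers was nearly all Zp3, and of the 3 tested, Gdf9 was higher, with a wide SE (2.40 ± 0.83, adjusted p = 0.013). Their part in the clone differences was not tested.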

How the data were processed

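RNA-seq of polyA RNA was analysed in 24 libraries of 12 groups. Per the submitters' processing notes and the study's methods, the authors used HISAT2 (version 2.2.1) for alignment to mm39, then SAMtools (version 1.19), and StringTie (version 2.2.1) for counting genes. The deposited values are estimated counts per gene, whole numbers with no normalization. The gene annotation, the read length, and the strand setting of the counting are not given in the sources used here.

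Counts were tested with edgeR (version 4.0.16, R version 4.3.3) by its quasi-likelihood test, with TMM scaling, a coefficient per group, and genes kept by filterByExpr (minimum count 10, total 15). Each clone was fitted on its 12 libraries, and differences between clones on all 24. Adjusted p-values are Benjamini-Hochberg values over all genes tested, and calls use 0.05 and an absolute log2 fold change over 1, the criteria of the study. SEs were derived from the F statistic. Common biological coefficients of variation were 11.6% and 11.9%, and the 2 replicates of a group correlated at r = 0.982–0.986 over genes. The alternatives were DESeq2 (version 1.42.0), RLE size factors, no filter, a block by replicate number, a fit of all 24 libraries, a correction for transcript GC content and length (splines with 5 degrees of freedom per library, as offsets), and each library left out. The fits were tested on simulated data.

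Members, gene lists, and tests were chosen with earlier results of these data known. The genes named were every member, from each list up to 3 called genes in each direction by adjusted p, the 5 genes most like Stra8 and Dazl (1 of those for Stra8 is not reported here), and Cyp26a1, Rarb, Bap1, and Kdm6a. Pou5f1, Zp3, Chpt1, and Gdf3 were named outside this rule, after their values were seen. The test of the IAA effect between clones and the counts of list genes under the GC and length correction were added after the data were seen. Meiosin was matched as Bhmg1. Coordinates, exons of the canonical transcript, and GC content come from the GENCODE annotation of mm39, and promoter windows from RefSeq (GRCm38.p6). A permutation test planned for members below the filter was not needed.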

Additional observations from a re-analysis of the deposited data

Results flagged for a closer look

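The RA response of Stra8 differed between the clones in a test of the difference itself. The log2 fold change was larger in BAP1-AID, by 3.37 (3 h, adjusted p = 5.83e-10) and 4.26 (6 h, adjusted p = 3.45e-12). Of all genes called in this test, 42 of 44 (3 h) and 88 of 109 (6 h) had the higher value in BAP1-AID. All 4 libraries of BAP1-AID at 0 h were below all 4 of UTX-AID, at 0.193–0.574 against 2.53–3.61 CPM, and at 6 h all 4 were above, at 107–132 against 54.3–63.2 CPM.

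The IAA effect on Rec8 differed between the clones by −1.22 on the log2 scale (adjusted p = 0.000327), where BAP1-AID had −1.17 and UTX-AID 0.07, in a test chosen after the data were seen.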

How the results depend on the processing

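Counts of members called were recomputed for 14 comparisons under the alternatives, and 307 of these values stayed within 1.5 times the reported count. The other 3 were in BAP1-AID. With IAA the count went from 1 to 0 with the correction for GC content and length, and to 0 with this correction and the replicate block, since Rec8 fell under the fold threshold at −0.95 and −0.97. At 6 h of RA, the counts with a library left out ranged from 1 to 2, the lower without the +IAA replicate 2 at 6 h. Dazl turned from lower to higher in BAP1-AID against UTX-AID with the correction, by 0.38 both alone and with the replicate block. Tex101 became called between the clones in 6 settings, among them without BAP1-AID −IAA replicate 1 at 0 h (−2.09), +IAA replicate 1 at 3 h (−2.04), and +IAA replicate 1 at 6 h (−2.10). Beyond the direct effect of the correction, the cause of these changes was not tested. For replicates of the same number, the correlation of their deviations between groups ran from −0.0504 to 0.185 in BAP1-AID and from 0.0279 to 0.172 in UTX-AID over 15 pairs each. These correlations were small, above 0 throughout in UTX-AID, and do not settle whether replicates of the same number share a batch. With the replicate block, 5 members were called between the clones in place of 4, the added one being Tex101, and the counts of the other comparisons were as reported. Over all genes, DESeq2 called 359 genes with IAA in BAP1-AID in place of 237, 80 in place of 44 for the RA response that differed between the clones at 3 h, and 183 in place of 109 at 6 h, and the correction with the block called 144 with IAA in BAP1-AID. The 4 altered-response comparisons, which called 0, 4, 2, and 0 genes, ranged from 0 to 16 under the alternatives, none of them a member. With 2 replicates per group and fewer than 30 counts for Tex101 in each library, changes of that gene could not be resolved.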

Other observations

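Among marker genes of other cell states, Gata6, a transcription factor of primitive endoderm, rose with RA by 3.86 ± 0.26 (log2 fold change ± SE, adjusted p = 4.1e-07) in BAP1-AID at 6 h and by 1.69 ± 0.38 (adjusted p = 0.00641) in UTX-AID. Tested between the clones, this difference was 2.17 ± 0.48 (adjusted p = 0.0138). Kit, the receptor for stem cell factor, differed in the same contrast by 1.31 ± 0.10 (adjusted p = 2.87e-08), so that both genes, like Stra8, responded more in BAP1-AID. Most genes called in this contrast, 88 of 109, had the higher log2 fold change in BAP1-AID. Thy1, a surface glycoprotein, fell by 1.20 on the log2 scale at 6 h in BAP1-AID (adjusted p = 0.000595).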
